A study of Homo sapiens with 6 samples.

Results

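The genes described here are the nuclear-encoded subunits of respiratory chain complexes II, III and IV and of ATP synthase (complex V), together with the electron carrier cytochrome c. They were taken by name from the deposited table, and all 43 were found among its 60612 gene rows: 4 genes of complex II, 9 of complex III, 13 of complex IV, 16 of complex V and CYCS. RNA was measured in SNU-368, a hepatocellular carcinoma cell line per the labels, in 3 libraries labelled shTFAM and 3 labelled shCtrl. A short hairpin RNA against TFAM, the main packaging and transcription factor of mitochondrial DNA (mtDNA), was set against a control hairpin in the same line, and no further agent, dose or time is given in the labels. The labels do not describe the libraries of a group as independent cultures, and every p-value given here reflects only how these samples vary, possibly for technical reasons.

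Most of these genes differed little between the groups. Of 41 genes that could be tested, ATP5F1E was higher in shTFAM, ATP5F1B and CYC1 were lower, and 38 did not pass. The hypoxia isoform COX4I2 and the muscle isoform COX7A1 were at or near 0 counts in all 6 libraries, so COX4I1 and COX7A2 were the forms present. Among subunit genes outside the 43, the testis-enriched isoform COX6B2 rose 6.27-fold while its partner COX6B1 had a log2 fold change of 0.07.

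As background, complexes II and III pass electrons from succinate and ubiquinol to cytochrome c, complex IV hands them to oxygen, and ATP synthase uses the proton gradient built by complexes I, III and IV. Complexes III, IV and V are mosaics, with some subunits encoded by mtDNA and the others imported from the cytosol, whereas complex II is wholly nuclear. Several nuclear subunit genes are known targets of the transcription factors NRF1, GABP and YY1 and of the PGC-1 family of coactivators.

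The deposited counts summed to between 46263488 and 61058282 per shTFAM library and between 43286024 and 50910536 per shCtrl library. Rows on mtDNA took 7.91 to 10.7% of counts in shTFAM and 10.1 to 14.2% in shCtrl, and the 43 genes took 0.672 to 0.738% in shTFAM and 0.748 to 0.857% in shCtrl. In CPM (counts scaled to library size, as in the test below) the sums of the 43 genes overlapped. They were 6897 to 7765 CPM in shTFAM and 7264 to 8271 CPM in shCtrl. TFAM itself stood at 63.4, 64.7 and 56.4 CPM in shTFAM, against 81.7, 75.8 and 89.2 in shCtrl, a log2 fold change of -0.42 (edgeR adjusted p 0.0377), so its mRNA was reduced but still present. That call ended when any 1 library was left out, with edgeR adjusted p from 0.0676 to 0.0948. The library shCtrl 3 stood apart from shCtrl 1 and shCtrl 2 on the second principal component, which held 16.6% of the variance. None of 12 hepatocyte and liver cancer markers was abundant enough to test, and 8, ALB and AFP among them, had 0 counts in every library, so the labelled cell type is not seen in its defining markers. Of the epithelial keratins, KRT18 had 146 to 168 FPKM (fragments scaled to gene-model length and library size) in shTFAM and 149 to 193 in shCtrl, and KRT8 was higher in shTFAM (log2 fold change 0.61, edgeR adjusted p 0.0160). The other epithelial markers were low, with means over all libraries of 0.653 FPKM for KRT19, 0.253 for CDH1 and 0.0762 for EPCAM. CDH1 and EPCAM were too low to test. Of the immune markers, CD68 was higher in shTFAM, at 12.2, 12.5 and 17.1 FPKM in shTFAM and 4.13, 6.00 and 6.35 FPKM in shCtrl, while PTPRC and CD3E were at 0 in every library. Of 6 stellate or fibroblast markers, 4 were tested, with a median log2 fold change of 1.43. DCN was 7.71-fold and PDGFRB 3.23-fold higher in shTFAM (edgeR adjusted p 0.00276 and 0.000721), and LUM had a log2 fold change of 1.17 (edgeR adjusted p 0.0924). COL3A1, too low to test, averaged 4.77 CPM in shTFAM and 0.313 CPM in shCtrl, and COL1A2 was at 0. Their summed level of 378 to 452 CPM in shTFAM and 242 to 380 CPM in shCtrl was mostly COL1A1 (log2 fold change 0.09, edgeR adjusted p 0.779). The part of these markers in the results was not tested. In bulk RNA, fewer cells of a type and less RNA per cell cannot be told apart.

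The test was edgeR's quasi-likelihood test over 14708 rows averaging 0.5 FPKM or more, and a gene was called at a Benjamini-Hochberg adjusted p under 0.05. All fold changes are given as log2 of shTFAM over shCtrl. Of all tested rows, 17.9% were called, 11.3% higher and 6.59% lower. Among the 41 tested subunit genes, 1 was called higher and 2 lower, or 7.32%, a smaller share than in the table. The number called also depended on scaling: scaling to counts outside mtDNA, which moved the median of all rows to -0.15 from -0.02, called 1 gene higher and 10 lower, 26.8% of the tested members, and 20.2% of all rows. With quantile-normalized FPKM in limma it was 22.0% of the members and 18.6% of all rows, so under both of these scalings the members' share was the larger one. With scaling to counts outside mtDNA, 40.4% of calls in the whole table were on the higher side, against 63.2% in the fit reported. Fold changes were small, with a median size of 0.17 against 0.32 over all tested rows. The 95% interval of the fold change lay within 2-fold for 40 of 41 genes, the exception being COX7A2L (-0.07 to 1.04), against 63.3% of all rows. Within 1.5-fold there were 32 of 41 genes, against 31.2% of rows. Abundant genes have narrower intervals, and the part of abundance in this difference was not tested.

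**Figure D1:**
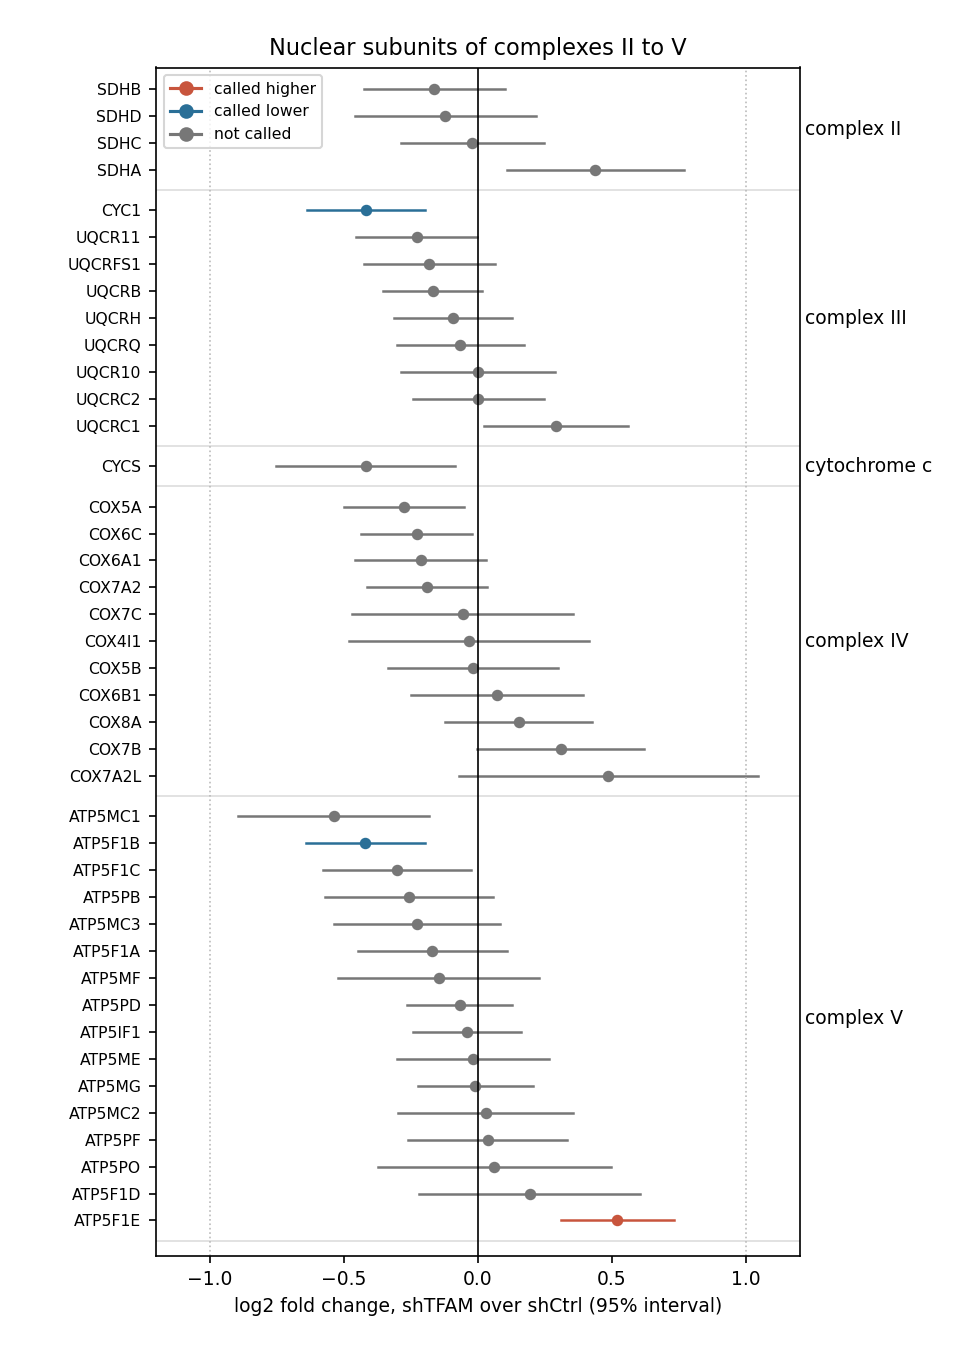
Log2 fold change (x axis, shTFAM over shCtrl) of the 41 tested subunit genes (y axis, grouped by complex), with 95% intervals from the edgeR fit. Points are coloured by call at an adjusted p under 0.05: ATP5F1E (0.52) higher, ATP5F1B (-0.42) and CYC1 (-0.42) lower; dotted lines mark 2-fold changes, and the COX7A2L interval alone crosses one.

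The signs leaned to the lower side, with 29 negative and 12 positive fold changes and a median of -0.06, against -0.02 over all rows. By complex the medians were -0.07 for the 4 genes of complex II, -0.09 for the 9 of complex III, -0.03 for the 11 tested of complex IV and -0.05 for the 16 of complex V. These medians were small beside the spread between libraries. The tested genes had a median shift from the shCtrl mean of -0.07, -0.13 and -0.05 in shTFAM 1, 2 and 3, against -0.05, -0.07 and 0.14 in shCtrl 1, 2 and 3. The library farthest from the shCtrl mean was shCtrl 3, in which 25 of the 41 genes had their highest value, while 23.5% of all rows had theirs there. Without shCtrl 3 the median over the 41 genes was -0.0011 and that of complex II was 0.05. In that fit 2 genes were called higher (ATP5F1E and COX7B) and 3 lower (ATP5F1B, CYC1 and ATP5MC1). The same fit called 9.06% of all rows higher and 4.98% lower. In 16 of the 41 genes, or 39.0%, the 3 shTFAM values in CPM did not overlap the 3 shCtrl values, 3 of them higher (SDHA, UQCRC1 and ATP5F1E) and 13 lower. In the whole table the groups did not overlap for 42.2% of rows, 22.1% higher and 20.1% lower.

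**Figure D2:**
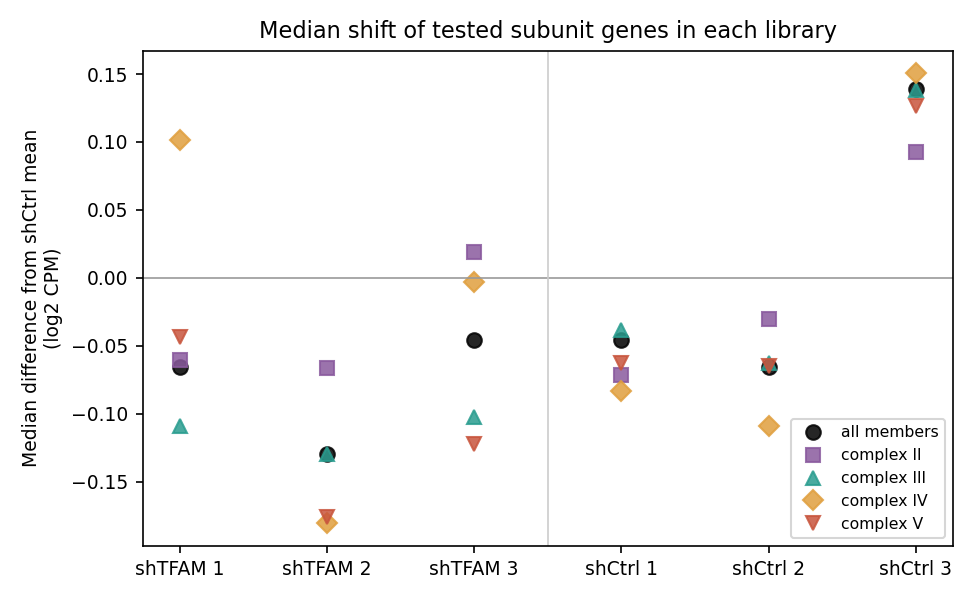
Median difference of each library from the shCtrl mean (y axis, log2 CPM) over all 41 tested genes and over those of each complex, for the 6 libraries (x axis, shTFAM left and shCtrl right). The symbols of shCtrl 3 lie above 0 (0.14 over all genes), whereas those of shCtrl 1 and shCtrl 2 lie below 0 beside most shTFAM symbols.

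The promoters of these genes were searched for the core letters of the factors named above: GCATGCGC for NRF1, CCGGAAG for GABP and AAGATGG for YY1, on both strands, in the 250 bases before the gene start (RefSeq, GRCh38.p14). The promoter table held 39 windows for 33 of the 43 genes. NRF1's letters were in 10 windows, 25.6% of the 39, against 2.63% of 35116 windows in the table; GABP's were in 13, 33.3%, against 8.52%; and YY1's were in 4, 10.3%, against 3.70%. Some windows of a gene overlap each other, and ATP5MC2 and ATP5PF count more than once. COX6A1, COX6B1, COX8A, UQCRH, SDHB and SDHD were among the genes with letters in a window. A match of letters is a description and not a site. Shown are the only gene called higher (ATP5F1E, chr20:59032336-59032585, minus strand), the gene with the lowest fold change (ATP5MC1, chr17:48892537-48892786, plus strand), cytochrome c (CYCS, chr7:25125261-25125510, minus strand) and, for comparison, COX5B of complex IV (chr2:97645812-97646061, plus strand), whose fold change was near 0. Capitals mark the letters of NRF1 in CYCS and those of NRF1 and then GABP in COX5B, and neither ATP5F1E nor ATP5MC1 holds any of the searched letters in its window. Genes with fold changes near 0 differed in this: COX5B and ATP5PF held letters, whereas UQCR10, UQCRC2 and COX4I1 held none. Any relation between letters and fold changes was not tested.
ATP5F1E: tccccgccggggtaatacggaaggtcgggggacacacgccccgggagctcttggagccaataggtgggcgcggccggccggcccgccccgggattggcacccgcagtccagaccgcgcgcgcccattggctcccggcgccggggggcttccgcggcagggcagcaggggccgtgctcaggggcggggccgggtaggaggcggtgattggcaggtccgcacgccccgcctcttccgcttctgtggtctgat
ATP5MC1: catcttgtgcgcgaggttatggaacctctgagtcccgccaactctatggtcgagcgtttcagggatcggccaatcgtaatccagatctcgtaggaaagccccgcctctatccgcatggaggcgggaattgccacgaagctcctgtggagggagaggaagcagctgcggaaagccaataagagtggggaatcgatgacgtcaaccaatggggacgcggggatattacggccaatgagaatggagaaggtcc
CYCS: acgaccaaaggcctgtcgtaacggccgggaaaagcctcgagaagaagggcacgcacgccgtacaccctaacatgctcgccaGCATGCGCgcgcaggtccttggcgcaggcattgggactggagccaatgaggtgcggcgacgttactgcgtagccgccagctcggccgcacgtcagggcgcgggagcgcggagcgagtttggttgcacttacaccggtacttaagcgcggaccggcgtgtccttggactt
COX5B: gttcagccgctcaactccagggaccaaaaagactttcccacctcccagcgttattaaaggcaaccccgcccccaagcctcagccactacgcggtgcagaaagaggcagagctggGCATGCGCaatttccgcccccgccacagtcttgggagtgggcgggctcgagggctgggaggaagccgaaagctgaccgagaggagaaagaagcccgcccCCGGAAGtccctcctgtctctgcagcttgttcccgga

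In complex II, which oxidises succinate and feeds electrons to ubiquinone, no gene passed and the catalytic flavoprotein stood apart from the other subunits in sign. SDHA, the flavoprotein, had 64.2, 65.0 and 84.3 FPKM in shTFAM, against 56.0, 55.6 and 55.7 in shCtrl. The groups did not overlap. The distance was set in part by shTFAM 3, and the other shTFAM libraries also lay above shCtrl. The fit gave a log2 fold change of 0.44 (SE 0.140, edgeR adjusted p 0.0713), and DESeq2 alone among 15 alternatives called it (DESeq2 adjusted p 0.0351, range over the alternatives 0.0351 to 0.159). Without shTFAM 3 the fold change was 0.27. Pseudogene copies of SDHA held counts equal to 5.21 to 7.13% of its own, so part of its reads may be shared. SDHB, the iron-sulfur subunit, had the lowest fold change of the complex (-0.16, edgeR adjusted p 0.348). SDHC, a membrane anchor and the least abundant gene of the complex, had 17.5, 17.5 and 18.5 FPKM in shTFAM, against 17.4, 18.5 and 21.6 in shCtrl, which overlap. The other membrane anchor, SDHD, had 97.6, 97.5 and 104 CPM in shTFAM and 93.9, 98.5 and 133 CPM in shCtrl, with shCtrl 3 above all others. As a sum over the 4 genes, complex II had 959, 977 and 1211 CPM in shTFAM, against 851, 862 and 903 in shCtrl, a difference made mostly by SDHA.

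In complex III, which passes electrons from ubiquinol to cytochrome c, the cytochrome c1 gene fell while the core subunits did not pass. CYC1 (ENSG00000179091, chromosome 8, 144095039 to 144097525, plus strand, hg38), the heme-carrying subunit that meets cytochrome c, had 54.5, 50.0 and 54.3 FPKM in shTFAM, against 76.8, 69.0 and 78.9 in shCtrl. Every shTFAM value lay below every shCtrl value. Its level was 127 ± 7.75 CPM in shTFAM and 169 ± 10.3 CPM in shCtrl (SD, n = 3 each), a log2 fold change of -0.42 (SE 0.0938, edgeR adjusted p 0.0260). The call was lost without shCtrl 1 (edgeR adjusted p 0.0754), shCtrl 2 (0.0568), shTFAM 1 (0.0615) or shTFAM 2 (0.0816), with the fold change between -0.47 and -0.37 over all single omissions.

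The matrix-facing core subunit UQCRC1 had the highest fold change of the complex (0.29, edgeR adjusted p 0.117), with 82.5, 74.2 and 90.7 FPKM in shTFAM and 69.7, 67.5 and 76.8 FPKM in shCtrl. These ranges overlap in FPKM and are separate in CPM, where TMM factors enter. Its partner UQCRC2 had 322 ± 12.8 CPM in shTFAM and 322 ± 35.1 CPM in shCtrl (SD, n = 3 each). The Rieske iron-sulfur protein gene UQCRFS1 stood at -0.18 (edgeR adjusted p 0.259), and pseudogene counts reached 7.01% of its own. Of the small subunits, UQCR11 stood at -0.23, UQCRB at -0.17, UQCRH at -0.09 and UQCRQ at -0.06, none of them called, and UQCR10 averaged 56.0 CPM in each group. UQCRH, the hinge protein and the most abundant gene of the complex, had 159, 163 and 150 FPKM in shTFAM, against 167, 169 and 196 in shCtrl, with shCtrl 3 the highest. Counts on its near-identical copy and pseudogenes, UQCRHL foremost, were 5.69 to 6.79% of its own. UQCRB, listed as least abundant, had 11.3, 10.9 and 10.6 FPKM in shTFAM and 12.8, 13.3 and 12.9 FPKM in shCtrl, but the gene model behind its FPKM is 14893 bases long, far above its mRNA. The 9 genes summed to 1507 ± 59.0 CPM in shTFAM and 1557 ± 104 CPM in shCtrl (SD, n = 3 each).

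Cytochrome c, the mobile carrier between complexes III and IV, had a fold change like that of CYC1 with a wider error. CYCS had 24.4, 26.7 and 21.2 FPKM in shTFAM, against 30.3, 30.8 and 41.0 in shCtrl. The groups did not overlap, and shCtrl 3 lay well above the other libraries. Its log2 fold change of -0.42 (SE 0.142, edgeR adjusted p 0.0833) became -0.28 without shCtrl 3. CYCS was called lower under 4 of 15 alternatives, with adjusted p from 0.0380 to 0.208 over all of them.

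In complex IV, cytochrome c oxidase, none of 11 tested nuclear subunit genes passed, and the fold changes spanned -0.27 (COX5A) to 0.49 (COX7A2L). COX5A, a matrix-side subunit, had 140, 141 and 141 CPM in shTFAM, against 159, 163 and 188 CPM in shCtrl, separate groups with the tightest shTFAM values of the complex (edgeR adjusted p 0.0889). COX6C (-0.23), COX6A1 (-0.21) and COX7A2 (-0.19) also had separate, lower shTFAM values without passing (edgeR adjusted p 0.114, 0.192 and 0.202). Of 15 alternatives, COX6C was called lower under 5, COX5A under 3, COX6A1 under 1 and COX7A2 under 0. COX6A1, the most abundant gene of the complex, had 294, 280 and 343 CPM in shTFAM and 349, 344 and 369 CPM in shCtrl. Counts on the row of VPS13B, which lies over COX6C on the other strand, equalled 52.3% of those of COX6C, and whether reads were shared was not tested.

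On the positive side of complex IV, COX7A2L, a factor that joins complexes III and IV into supercomplexes, had 17.0, 13.6 and 24.1 FPKM in shTFAM, against 13.0, 11.9 and 16.6 in shCtrl. The groups overlapped and shTFAM 3 was the highest; the fold change of 0.49 (edgeR adjusted p 0.192) was 0.20 without it. COX7B, a small membrane subunit, had 121, 127 and 127 CPM in shTFAM, against 89.8, 91.7 and 121 CPM in shCtrl, with shCtrl 3 alone near the shTFAM level. Its fold change of 0.31 (edgeR adjusted p 0.147) was 0.45 without shCtrl 3, where it was called (edgeR adjusted p 0.0232, range over 15 alternatives 0.0232 to 0.359). COX8A stood at 0.15 (edgeR adjusted p 0.393). COX5B and COX7C stood between -0.06 and -0.02. The 11 genes summed to 1458 ± 140 CPM in shTFAM and 1499 ± 126 CPM in shCtrl (SD, n = 3 each).

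Of the isoform pairs of complex IV, COX4I1 and COX4I2 encode alternative forms of the same regulatory subunit, the second known as a lung form and a target of hypoxia-inducible factors. COX4I1 had 28.8, 20.6 and 32.0 FPKM in shTFAM, against 24.8, 30.8 and 32.7 in shCtrl. The groups overlapped, the lowest value of all being in shTFAM 2, and the log2 fold change was -0.03 (95% interval -0.48 to 0.41, edgeR adjusted p 0.924). COX4I2 had 0 counts in all 6 libraries, which allows up to 0.0491 to 0.0693 CPM (3 counts in a library, counting error only), so no switch between the forms was detectable at this depth. The heart and muscle isoform COX7A1 had 5 counts in all, 2 in shTFAM 2 and 3 in shCtrl 1. Its ubiquitous counterpart COX7A2 had 35.1, 34.3 and 32.3 FPKM in shTFAM, against 40.7, 37.5 and 44.7 in shCtrl. The muscle isoform COX6A2 and the testis isoform COX7B2 had 0 counts in every library, and COX8C had at most 4. Muscle markers were likewise at or near 0, at 0.327 CPM at most in shTFAM and 0.493 in shCtrl when summed.

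COX6B2 was the exception among the isoforms. This gene, a testis-enriched form of the intermembrane-space subunit that helps join the oxidase dimer, is not among the 43 and came from a separate list of 9 other subunit genes, 6 of them tested. COX6B2 had 5.13, 5.82 and 5.21 FPKM in shTFAM, against 0.966, 1.05 and 0.666 in shCtrl. The groups were far apart, and no shTFAM library was near any shCtrl library. Its log2 fold change of 2.65 (SE 0.207, edgeR adjusted p 0.00143) kept its call in each of 14 alternatives, with edgeR adjusted p up to 0.00964 when single libraries were left out. COX6B1, the ubiquitous form, had 50.8, 46.2 and 49.8 FPKM in shTFAM, against 43.9, 44.9 and 59.3 in shCtrl, overlapping groups with shCtrl 3 the highest (0.07, edgeR adjusted p 0.752). Within a library the ratio of COX6B2 to COX6B1 FPKM was 0.101, 0.126 and 0.105 in shTFAM, against 0.0220, 0.0234 and 0.0112 in shCtrl. The difference in mean log2 ratio was 2.62, with a two-sided exact permutation p of 0.1, the smallest that 3 against 3 can give (Benjamini-Hochberg 0.125 over 5 ratios). COX6B1 thus stayed the more abundant form per length in every library. A second row on the same strand overlaps COX6B2 and held counts equal to 19.6% of its own.

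**Figure D3:**
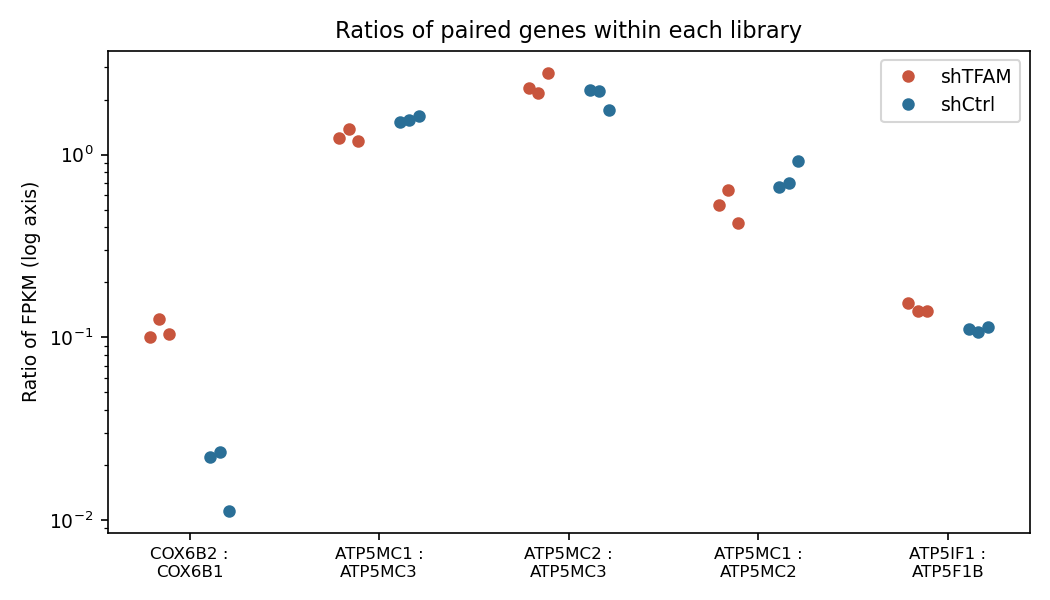
Ratio of FPKM of paired genes in each library (y axis, log scale), with shTFAM points left of shCtrl points for each pair (x axis). The COX6B2 to COX6B1 ratio lies between 0.101 and 0.126 in shTFAM and between 0.0112 and 0.0234 in shCtrl, and the ATP5MC2 to ATP5MC3 ratio alone overlaps between groups.

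The other tested genes of that separate list were NDUFA4, the oxidase subunit first assigned to complex I (-0.22), its hypoxia-responsive relative NDUFA4L2 (0.79), the ATP synthase membrane subunits ATP5MJ (-0.31) and ATP5MK (-0.27), and UQCRHL (-0.18), none of which passed (edgeR adjusted p 0.102 to 0.424). NDUFA4L2 lies over the much more abundant SHMT2 on the other strand, so its low counts are uncertain.

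ATP synthase held both directions within its catalytic part. In the F1 head and central stalk, 1 of 5 genes was called higher and 1 lower, beside 11.3% and 6.59% of all rows. None of the 4 peripheral stalk genes, 3 other membrane subunit genes, 3 c-ring genes or the inhibitor gene passed. Parts this small cannot be set apart from the whole table by such counts. ATP5F1B (ENSG00000110955, chromosome 12, 56638175 to 56645984, minus strand, hg38) encodes the catalytic beta subunit and was the most abundant of the 43 genes. ATP5F1B had 286, 290 and 310 FPKM in shTFAM, against 417, 425 and 414 in shCtrl. The highest shTFAM value lay far below the lowest shCtrl value. Its level was 806 ± 59.9 CPM in shTFAM and 1078 ± 23.8 CPM in shCtrl (SD, n = 3 each), a log2 fold change of -0.42 (SE 0.0941, edgeR adjusted p 0.0257). The call was lost without shCtrl 1 (edgeR adjusted p 0.0676), shCtrl 2 (0.0896), shTFAM 1 (0.0724) or shTFAM 2 (0.0789), with fold changes from -0.48 to -0.39 over the single omissions.

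ATP5F1E (ENSG00000124172, chromosome 20, 59025475 to 59032335, minus strand, hg38) encodes the small epsilon subunit of the central stalk. It had 38.4, 33.0 and 35.9 FPKM in shTFAM, against 26.7, 25.5 and 27.0 in shCtrl. The groups were separate, and the lowest shTFAM value, in shTFAM 2, was still above the highest shCtrl value. Its level was 221 ± 16.2 CPM in shTFAM and 154 ± 3.19 CPM in shCtrl (SD, n = 3 each), a log2 fold change of 0.52 (SE 0.0898, edgeR adjusted p 0.0114). The call was lost only without shCtrl 2 among 15 alternatives (edgeR adjusted p 0.0522, range 0.000102 to 0.0522). The remaining F1 genes did not pass: the alpha subunit gene ATP5F1A stood at -0.17, the gamma subunit gene ATP5F1C at -0.30 and the delta subunit gene ATP5F1D at 0.19 (edgeR adjusted p 0.347, 0.117 and 0.478). Single libraries set part of these values: ATP5F1A stood at -0.07 without shCtrl 3, and ATP5F1D at 0.00068 without shTFAM 2. ATP5F1D, the least abundant gene of the complex, had 38.1, 49.6 and 31.4 CPM in shTFAM, against 36.5, 31.5 and 36.2 CPM in shCtrl, and the shTFAM values spanned the shCtrl values.

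**Figure D4:**
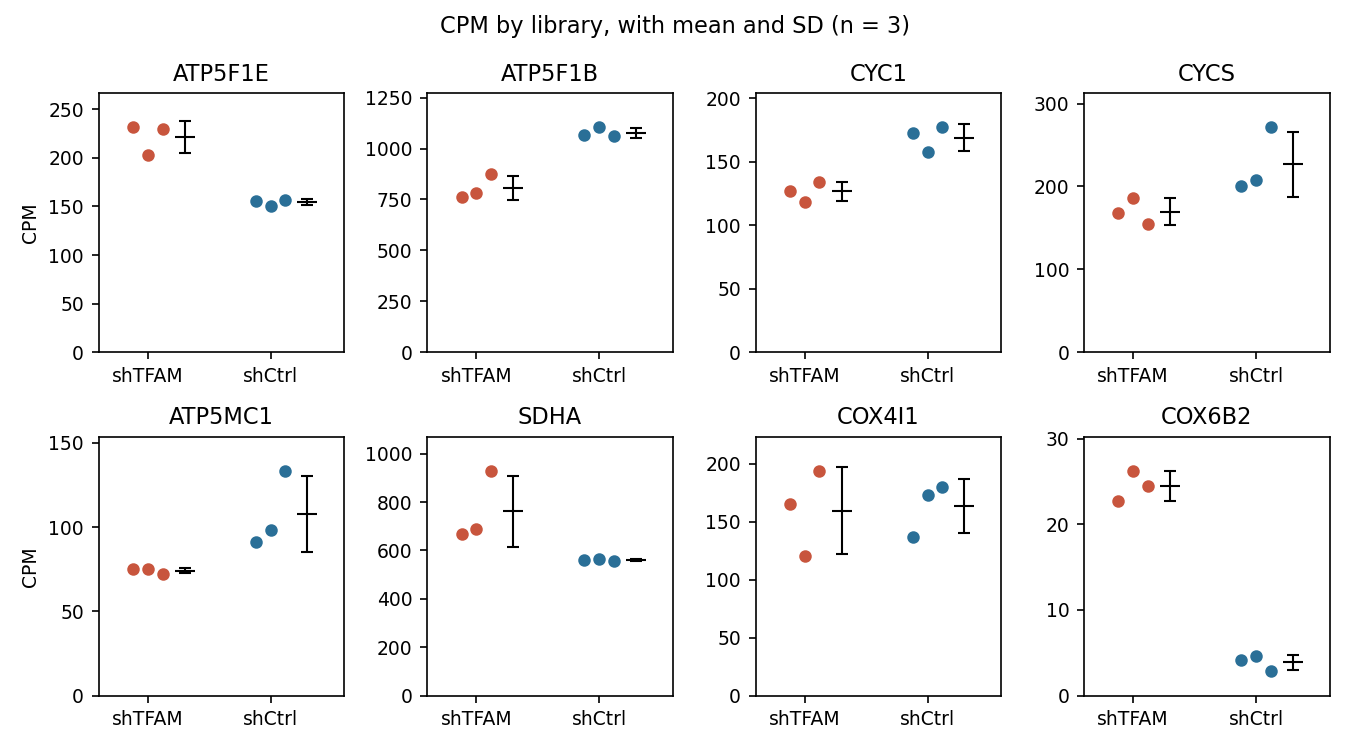
CPM of 8 genes in each library (points; y axis from 0), with the mean and SD of 3 libraries beside them, shTFAM left and shCtrl right. ATP5F1E lies higher in shTFAM (221 against 154 CPM on average), ATP5F1B (806 against 1078) and CYC1 (127 against 169) lie lower, COX4I1 overlaps between groups, and COX6B2 is at 24.5 against 3.90 CPM.

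The c-ring, which turns as protons cross the membrane, is built from 1 protein encoded by ATP5MC1, ATP5MC2 and ATP5MC3, whose products differ in their import sequences. ATP5MC1 had the lowest fold change of all tested members, -0.54 (SE 0.151), and narrowly missed the threshold (edgeR adjusted p 0.0504). It had 24.2, 23.8 and 22.0 FPKM in shTFAM, against 30.5, 32.3 and 44.6 in shCtrl. The groups did not overlap; shCtrl 3 was far above the rest, and without it the fold change was -0.36. ATP5MC1 was called lower under 8 of 15 alternatives, with adjusted p from 0.0130 to 0.128 over all of them. ATP5MC2 had 45.6, 37.4 and 52.0 FPKM in shTFAM, against 45.7, 46.3 and 48.2 in shCtrl, overlapping groups with a fold change of 0.03 (edgeR adjusted p 0.904). ATP5MC3 had 19.6, 17.2 and 18.5 FPKM in shTFAM, against 20.3, 20.9 and 27.3 in shCtrl, with a fold change of -0.23 (edgeR adjusted p 0.265). These ATP5MC3 groups did not overlap in FPKM, with shCtrl 3 far above the rest, and without that library the fold change was -0.09.

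Of the counts on the 3 c-ring genes, ATP5MC1 took 17.0 ± 2.13% in shTFAM and 21.6 ± 1.97% in shCtrl, and ATP5MC2 took 48.4 ± 3.88% in shTFAM and 42.6 ± 3.68% in shCtrl (SD, n = 3 each). The log2 FPKM ratio of ATP5MC1 to ATP5MC3 was lower in shTFAM by a mean of -0.30 and that of ATP5MC1 to ATP5MC2 by -0.53, each at the design's limit of 0.1 in a two-sided exact permutation test (Benjamini-Hochberg 0.125). The ratio of ATP5MC2 to ATP5MC3 differed by 0.23 (exact permutation p 0.3, Benjamini-Hochberg 0.3). No ratio could pass 0.05 with 3 libraries a group.

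ATP5IF1, which inhibits reverse ATP hydrolysis by the enzyme, had 44.3, 40.5 and 43.2 FPKM in shTFAM, against 46.6, 45.4 and 47.4 in shCtrl, with a fold change of -0.04 (edgeR adjusted p 0.777). With ATP5F1B lower, the ratio of ATP5IF1 to ATP5F1B was 0.155, 0.140 and 0.139 in shTFAM, against 0.112, 0.107 and 0.114 in shCtrl. All shTFAM ratios were above all shCtrl ratios, a log2 difference of 0.38 (exact permutation p 0.1, two-sided, at the design's limit, Benjamini-Hochberg 0.125). In the peripheral stalk, which holds the head still, ATP5PB stood at -0.26 (-0.12 without shCtrl 3) and ATP5PD at -0.07, and ATP5PF and ATP5PO were at 0.04 and 0.06 with overlapping groups. ATP5PF shares a start region with GABPA on the other strand, whose counts equalled 53.1% of its own. The other membrane subunit genes ATP5ME, ATP5MF and ATP5MG lay between -0.15 and -0.01. The 16 genes summed to 3104 ± 135 CPM in shTFAM and 3492 ± 254 CPM in shCtrl (SD, n = 3 each), and ATP5F1B made up most of that difference.

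In order of level per length, ATP5F1B (357 FPKM on average over the 6 libraries), COX6A1 (208 FPKM) and UQCRH (167 FPKM) led the 43 genes. The same 3 genes led when CPM were divided by the length of the longest principal transcript in GENCODE 29, a check added after the data were seen, with ATP5F1B and COX6A1 in exchanged places. The lengths implied by the FPKM were 2.29 times those transcripts in the median gene and ran from 584 bases (COX8A) to 14893 bases (UQCRB), so the order of less abundant genes depends on the gene model.

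The 6 mtDNA-encoded subunits of complexes III, IV and V had fold changes from -0.70 (MT-CO3) to -0.33 (MT-ATP6), with a median of -0.55 beside -0.06 for the nuclear genes, a difference that was not tested. Of these mRNAs, MT-CYB and MT-CO3 were called lower (edgeR adjusted p 0.0311 and 0.0378). Both calls ended on leaving out any library but shTFAM 2, with edgeR adjusted p up to 0.0935 for MT-CYB and 0.108 for MT-CO3. With quantile normalization both stood at -0.30 and were not called (limma adjusted p 0.0708 for MT-CYB and 0.214 for MT-CO3), and the MT-CO3 call was also lost without the filter on low rows (edgeR adjusted p 0.0521). Over 15 alternatives the adjusted p of MT-CYB lay between 0.00114 and 0.0935, and that of MT-CO3 between 0.00138 and 0.214. Per CPM of nuclear complex III subunits there were 1.94, 2.43 and 1.55 CPM of MT-CYB in shTFAM, against 3.04, 3.20 and 2.61 in shCtrl, so every shTFAM library had the lower ratio. For complex IV the ratio of MT-CO1, MT-CO2 and MT-CO3 to nuclear subunits was 22.0, 31.2 and 17.5 in shTFAM, against 34.5, 38.2 and 25.4 in shCtrl, where shTFAM 2 lay above shCtrl 3. For complex V the ratio of MT-ATP6 and MT-ATP8 to nuclear subunits was 0.967, 1.40 and 0.726 in shTFAM, against 1.32, 1.31 and 1.10 in shCtrl, and shTFAM 2 was the highest of all. These ratios are descriptions with no test, and MT-ATP6 and MT-ATP8 overlap, so their reads can be shared.

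All 9 assembly factors of complex III had negative fold changes (median -0.32), as did 51.4% of all rows. Of the 9, 1 was called lower, or 11.1%, beside 6.59% of all rows. UQCC2, which helps make and insert cytochrome b, had 7.97, 7.20 and 7.18 FPKM in shTFAM, against 15.2, 11.3 and 13.2 in shCtrl. The groups were well separated (log2 fold change -0.75, SE 0.125, edgeR adjusted p 0.0103), and the call held in all 15 alternatives. The row of ITPR3 on the other strand, which overlaps UQCC2, held 1055% of its counts, and whether reads were shared was not tested. LYRM7, a chaperone of the Rieske protein, and BCS1L, which inserts it, had larger negative fold changes (-0.87 and -0.81) with a wider spread, and did not pass (edgeR adjusted p 0.125 and 0.0695). Rows on the other strand overlap both and held 327% (HINT1, over LYRM7) and 235% (ZNF142, over BCS1L) of their counts. Sharing of reads was not tested here either.

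Of 26 assembly factors of complex IV, 2 were called lower, or 7.69%, beside 6.59% of all rows, with a list median of -0.14. COA7, a heme-binding assembly protein, had 8.74, 7.45 and 4.89 FPKM in shTFAM, against 11.7, 11.9 and 18.0 in shCtrl (-0.91, edgeR adjusted p 0.0421). TACO1, which activates translation of the MT-CO1 mRNA, had 11.5, 9.08 and 8.53 FPKM in shTFAM, against 15.2, 12.9 and 15.0 in shCtrl (-0.49, edgeR adjusted p 0.0460). In both genes the groups did not overlap. The COA7 call ended on leaving out any single library (edgeR adjusted p 0.0508 to 0.0944), and the TACO1 call on leaving out any but shTFAM 1 (up to 0.133). None of 4 assembly factors of complex II, 5 of complex V, or HCCS, which attaches heme to cytochromes c and c1, passed.

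Among 9 transcription factors and coactivators of these genes, 1 was called lower, or 11.1%, beside 6.59% of all rows. None was called higher, beside 11.3% of all rows. PPRC1, a PGC-1 related coactivator, had 12.7, 11.6 and 11.3 FPKM in shTFAM, against 16.7, 15.4 and 18.0 in shCtrl. The groups did not overlap (-0.41, edgeR adjusted p 0.0271), and the call ended on leaving out any library but shCtrl 3 (edgeR adjusted p up to 0.0812). NRF1 had 4.19, 4.81 and 4.13 FPKM in shTFAM, against 4.47, 4.68 and 4.19 in shCtrl, with a fold change of 0.06. GABPA (0.38) and YY1 (0.47) lay on the higher side without passing (edgeR adjusted p 0.0666 and 0.0616), and PPARGC1A stood at -0.16. PPARGC1B, another PGC-1 coactivator, had 1.51, 1.53 and 0.860 FPKM in shTFAM, against 1.76, 1.86 and 2.51 in shCtrl. Its groups did not overlap, but its fold change of -0.58 did not pass (edgeR adjusted p 0.136).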

How the data were processed

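RNA of 6 SNU-368 libraries was analysed, 3 shTFAM and 3 shCtrl, grouped by the treatment label. Stranded libraries (dUTP method) were made from poly(A) RNA and read from both ends, per the labels' protocols. The authors deposited 1 table with whole-number counts and FPKM per gene for each library, per the file headers, and 0 of its value columns went unused. HISAT2 2.0.4, StringTie 1.3.4d, cutadapt 1.9, Bowtie 0.12.2 and 2 builds, hg38 and mm8, are named without roles in the submitters' processing notes; the counting tool and its strand setting are not given in the sources used here. Row positions are human and are given as hg38.

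Counts were tested with edgeR 4.0.16 (R 4.3.3; TMM scaling, trended dispersion, quasi-likelihood test, two-sided) on 14708 rows averaging 0.5 FPKM or more, adjusted by Benjamini-Hochberg over all of them. SE is the log2 fold change over the root of F, and CPM are scaled by TMM. Ratios of FPKM were tested by exact permutation (SciPy 1.17.1). Alternatives used limma 3.58.1, DESeq2 1.42.0, other scalings, filters, pseudocounts of 1 and 0.1 and left-out libraries. On simulated counts for this comparison (5 runs over 14708 genes, 200 of them changed in each), the test called 6.57% of genes given a log2 change of 0.5, 51.6% at a change of 1, 91.2% at a change of 2 and 0.0331% of unchanged genes. No pair of replicates agreed within sampling noise (lowest chi-square per degree of freedom 42.6). Intervals and floors cover counting error or the spread of these libraries only.

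The members and gene lists were chosen with earlier results of these data known. Values per library are given for called members, for both genes of each tested ratio and for the most and least abundant member of each complex, with the largest and smallest fold change of each complex; called genes are named from other lists. Other genes with values per library were added after their values were seen. Promoters come from RefSeq (GRCh38.p14), and CYC1, UQCRB and COX6C sequences are not used here. An item of the marker lists is not reported here.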

Additional observations from a re-analysis of the deposited data

How the results depend on the processing

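Of 615 fold changes of the 41 members under 15 alternatives each, 513 kept their direction and their side of the threshold, 64 changed sign (in 15 members, the largest of them at 0.15 in size), 29 gained a call and 9 lost one. Members called higher, 1 in the fit reported, were 2 with DESeq2, 0 at an adjusted p of 0.01 and 2 without shCtrl 3 and shTFAM 3 together. Of all rows, 14.8, 3.80 and 9.05% were called higher under these, in the same order, beside 11.3% in the fit reported. Leaving out single libraries gave 0 to 2, beside 5.73 to 9.06% of all rows. Members called lower, 2 in the fit reported, were 6 among rows of at least 5 FPKM, 10 with scaling to counts outside mtDNA, 4 with DESeq2, 4 with limma on log2(FPKM + 1), 4 with a pseudocount of 0.1, 8 with quantile normalization and 0 at an adjusted p of 0.01. Under the first 6 of these, 11.3, 12.04, 11.4, 9.09, 8.95 and 8.63% of all rows were called lower, in the same order, beside 6.59% in the fit reported. Members called in either direction were 17.1% among rows of at least 5 FPKM, against 26.8% of those rows, and 14.6% with DESeq2, against 26.2% of all rows. Leaving out single libraries gave 0 to 3 members called lower, beside 2.07 to 4.98% of all rows. At an adjusted p of 0.01, 0.945% of all rows were called lower. Scaling to counts outside mtDNA moved the median over all members to -0.20, over complex II to -0.20, over complex III to -0.22, over complex IV to -0.17 and over complex V to -0.19; relative to the median of all rows the members' median was -0.05 under both scalings. The complex II median was -0.15 with library totals, 0.020 without shCtrl 3 and shTFAM 3 together, and -0.13 to 0.052 with single libraries left out. Sign changes were as follows. COX6B1 stood at -0.0054 with library totals, -0.059 outside mtDNA, -0.00012 with limma on log2(FPKM + 1), -0.030 with quantile normalization, and -0.022 to 0.21 with single libraries left out. ATP5MC2 stood at -0.0037 among rows of at least 5 FPKM, -0.047 with library totals, -0.11 outside mtDNA, -0.066 and -0.068 with limma pseudocounts of 1 and 0.1, -0.11 with quantile normalization, -0.10 without shCtrl 3 and shTFAM 3 together, and -0.12 to 0.15 with single libraries left out. SDHC stood at 0.021 without shCtrl 3 and shTFAM 3 together and ran from -0.10 to 0.063 with single libraries left out. With single libraries left out COX4I1 ran from -0.20 to 0.14 and ATP5IF1 from -0.074 to 0.0014. For ATP5ME, ATP5MF, ATP5MG, ATP5PF, ATP5PO, COX5B, COX7C, SDHD, UQCR10 and UQCRC2, all near 0 and also changing sign under at least 1 alternative, values are given as a range, a choice made after the data were seen: -0.27 to 0.25 over all alternatives, with adjusted p of 0.164 or more. The 5 ratios (1 of isoforms, 3 of c-ring genes and ATP5IF1 to ATP5F1B) kept their direction with a pseudocount of 0.1 and with each single library left out. The causes were not tested. No paired analysis was possible because the labels give the groups no shared replicate numbers. In the simulated counts, with 200 changed rows drawn at any level, changes of 0.5 log2 units were mostly missed by the test. In the data 17.9% of rows were called, and the simulated rate was not measured for these members. ATP5F1B and CYC1 were called at -0.42 and ATP5F1E at 0.52. Genes that did not pass are still not shown to be unchanged.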
